A study of Mus musculus with 4 samples.

Results

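The endothelial identity genes examined here were 10 genes that mark the cells lining blood and lymph vessels: Kdr, Flt1, Flt4, Tek, Tie1, Pecam1, Cdh5, Egfl7, Sox17 and Sox18. They were chosen by name among 21755 protein-coding genes of the autosomes and X in the GENCODE annotation of mm10; the rule uses no measured value, though it was set with earlier results of these data known. H3K4me3, trimethylation of lysine 4 on histone H3, was mapped by ChIP-seq in frozen whole gastrocnemius, a calf muscle, of adult female B6CASTF1/J mice aged 2 months, first-generation hybrids of C57BL/6J and CAST/EiJ. Pool E was biological replicate 1 and pool F biological replicate 2; each combined 2 biosamples and gave 2 of the 4 libraries. All carried the same strain, sex, age and tissue, without a treatment, so the only comparison between samples was pool E beside pool F. Peaks were deposited as a list for each pool, a pooled list and a replicated list drawn from both pools, which is the list meant below unless another is named. Pools have 1 list each, so both pools' values are given side by side in place of a mean and SD, and no test was made.

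H3K4me3 marks the start of genes with active or poised promoters, and broad stretches of the mark are known at genes that define a cell type. Kdr, Flt1 and Flt4 are the receptors of the vascular endothelial growth factors (VEGFs), and Tek and Tie1 form the angiopoietin receptor pair that steadies mature vessels. Pecam1 and Cdh5 (VE-cadherin) hold endothelial cells together at their junctions, Egfl7 is secreted by endothelium and hosts the microRNA miR-126, and Sox17 and Sox18 are the SoxF transcription factors of arterial and lymphatic development. In muscle, capillary endothelium lies along every fibre, and in whole tissue fewer cells of a type and less mark per cell cannot be told apart.

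Every one of the 10 genes had a peak within 1000 bp of a transcription start site (TSS), in the replicated, pool E, pool F and pooled lists alike. Among all protein-coding genes this held for 69.3% in the replicated list and for 68.6% in both pools, so a marked promoter alone was the common state. Their peaks were wide but not high. The median width of the widest TSS peak was 6302.5 bp against 2281 bp over all 15067 marked genes, and 9 of 10 genes lay above that median. The median signal value, the authors' own height of a peak, was 30.6 for the 10 genes against 45.2 for all marked genes, and 9 of 10 lay below that median.

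Promoter sequences are shown first because base composition divides the genes. The RefSeq table of GRCm38.p6, the build of mm10, held 8 windows of 250 bases before to 50 after a start for 6 of the 10 genes. Pecam1, Cdh5, Sox17 and Sox18 had no entry. Printed below, 5′ to 3′ on the gene's strand, are the stretches before the start that lie outside exons, with each CG dinucleotide in capitals. The receptors Flt1, Kdr and Tek are shown in order of falling CpG content, and the 3 Egfl7 promoters show a range of it within 1 gene. First, second and last name the order of these 3 RefSeq entries along Egfl7. GENCODE has 19 starts for the gene, among them starts before the first and after the last entry.
Flt1, chr5:147726012-147726261, minus strand: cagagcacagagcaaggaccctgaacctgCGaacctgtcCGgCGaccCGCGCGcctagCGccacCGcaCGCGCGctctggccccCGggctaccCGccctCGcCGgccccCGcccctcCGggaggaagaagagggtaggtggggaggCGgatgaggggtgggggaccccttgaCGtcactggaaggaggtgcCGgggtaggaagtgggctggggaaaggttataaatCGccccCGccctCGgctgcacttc
Kdr, chr5:75978459-75978705, minus strand: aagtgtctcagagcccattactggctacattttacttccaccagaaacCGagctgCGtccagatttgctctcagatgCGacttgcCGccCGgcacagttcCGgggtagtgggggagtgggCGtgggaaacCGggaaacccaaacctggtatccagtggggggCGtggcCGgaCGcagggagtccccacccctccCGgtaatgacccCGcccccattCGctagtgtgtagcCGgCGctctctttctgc
Tek, chr4:94739039-94739288, plus strand: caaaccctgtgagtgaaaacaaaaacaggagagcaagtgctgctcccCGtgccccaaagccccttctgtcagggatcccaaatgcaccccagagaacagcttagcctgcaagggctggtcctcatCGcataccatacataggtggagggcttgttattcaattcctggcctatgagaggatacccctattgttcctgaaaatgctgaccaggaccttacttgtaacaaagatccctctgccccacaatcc
Egfl7 first start, chr2:26580833-26581055, plus strand: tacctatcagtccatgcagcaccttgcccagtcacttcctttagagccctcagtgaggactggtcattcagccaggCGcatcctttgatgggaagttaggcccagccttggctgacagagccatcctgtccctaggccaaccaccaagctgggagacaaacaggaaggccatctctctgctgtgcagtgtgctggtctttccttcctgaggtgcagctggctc
Egfl7 second start, chr2:26583615-26583863, plus strand: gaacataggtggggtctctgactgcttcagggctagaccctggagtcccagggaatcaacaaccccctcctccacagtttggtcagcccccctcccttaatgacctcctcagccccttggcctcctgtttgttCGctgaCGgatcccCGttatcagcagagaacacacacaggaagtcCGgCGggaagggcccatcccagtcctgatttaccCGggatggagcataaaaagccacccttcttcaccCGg
Egfl7 last start, chr2:26586386-26586629, plus strand: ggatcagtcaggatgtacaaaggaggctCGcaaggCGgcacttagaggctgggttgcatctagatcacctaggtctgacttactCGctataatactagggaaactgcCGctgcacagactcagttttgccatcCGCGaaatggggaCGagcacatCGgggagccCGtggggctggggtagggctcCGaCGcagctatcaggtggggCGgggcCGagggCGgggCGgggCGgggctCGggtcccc
The stretch of Flt1 held 23 CG dinucleotides and that of Kdr 16, while that of Tek held 2. Along Egfl7 the number was 1 at the first start, 7 at the second and 17 at the last. In the replicated list a peak of Egfl7 with a signal value of 15.3 covered the first of these starts. The second and the last shared 1 peak with a signal value of 47.5, although their CpG numbers differed. In pool E 1 peak with a signal value of 51.3 covered all 3.

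Short motifs were counted in the whole 250 bases before each start, on both strands. GGAAG, the core bound by ETS factors, which drive many endothelial genes, lay in 6 of the 8 windows, against 64.1% of 32851 RefSeq promoters of the same length. Flt1 had 3 matches, Kdr 1, Flt4 1 and Tie1 6. The first Egfl7 start had 4 and the second 2. Tek and the last Egfl7 start held none. Annotated exons of the gene itself covered all 250 bases of the Flt4 window and 212 of those of Tie1. All matches of Flt4 thus lie in exon sequence, and those of Tie1 may. ACAAT, a core bound by Sox factors, lay only in the Tek window among the 8, with 2 matches, against 27.7% of promoters. TATAAA lay only in the Flt1 window among the 8 (12.4% of promoters), and AGATAA, the core of a zinc-finger family of blood and vessel regulators, in none of them (9.99%). GGGCGG, the GC box, lay in 4 of 8 (32.7%), with 4 matches at the last Egfl7 start, 3 each in Flt1 and Flt4 and 2 in Kdr. It overlaps the CG dinucleotides counted above. A match is a run of letters and not a measured binding site.

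The VEGF receptors ranged from a wide to a narrow promoter. Flt1, the decoy-like VEGF receptor 1, had a strongest TSS peak of 7532 bp on chromosome 5 from 147719758 to 147727289, with a signal value of 38.6. Pool E gave 7521 bp with a signal value of 43.0, and pool F 7491 bp with 35.1. Kdr, the main signalling receptor of VEGF-A, had a peak of 5073 bp on chromosome 5 from 75974299 to 75979371, with a signal value of 30.7. In pool E it measured 5093 bp (signal value 36.6), in pool F 5009 bp (26.6). The 2 pools placed the edges of these peaks almost alike, and both genes were far longer in mark than Flt4.

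Flt4, the receptor of VEGF-C that marks lymphatic endothelium, had a peak of 2032 bp on chromosome 11 from 49609004 to 49611035. It was the only one of the 10 genes below the median width of marked genes, at the 40th percentile (40.0), and it stayed below the median in pool E (2052 bp) as in pool F (1942 bp). Its signal value of 30.5 was close to that of Kdr, and the pools gave 38.5 (E) and 28.8 (F). Kdr and Flt4 thus had peaks of like height and unlike length.

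The angiopoietin receptors had intermediate widths. Tek (Tie2), the receptor that binds angiopoietins, had a peak of 4657 bp on chromosome 4 from 94738458 to 94743114, with a signal value of 32.3. Its length was 4903 bp in pool E against 4568 bp in pool F, with signal values of 35.3 and 30.8. Tie1, its partner with no ligand of its own among the angiopoietins, had 3198 bp on chromosome 4 from 118486912 to 118490109. Its signal value of 16.5 was the lowest of the 10 genes, at the 12th percentile (12.0) of marked genes. Pool E had 3690 bp and a signal value of 13.1, pool F 3087 bp and 14.6. Tie1 had the lowest value of the 10 in each pool as well.

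The junction genes had the 2 widest strongest peaks of the 10 genes in the replicated list, and low heights. Cdh5, the adherens junction cadherin of endothelium, had a peak of 10104 bp on chromosome 8 from 104100805 to 104110908, with a signal value of 26.0. Pecam1 (CD31), a homophilic adhesion molecule also present on platelets and leukocytes, had a peak of 9791 bp on chromosome 11 from 106706180 to 106715970, with a signal value of 25.5. Both widths lay above the 99th percentile of marked genes (99.5 and 99.4) and both signal values below the 19th (18.9 and 18.5).

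Peak boundaries at the junction genes depended on the pool. The Pecam1 peak was 9913 bp wide in pool E but 6341 bp in pool F, with signal values of 30.1 and 22.1. The Cdh5 peak was 7820 bp wide in pool E but 7105 bp in pool F, with signal values of 29.3 and 16.4. Both pool peaks of Cdh5 were shorter than the peak of the replicated list, with breaks at other places: in pool E the strongest peak began 4 bp after the main TSS. Joining peaks over gaps of at most 1000 bp into a domain gave 13330 and 11773 bp for Pecam1 in pools E and F, and 14012 and 11676 bp for Cdh5. The marked stretch was thus long in both pools, and how it was cut into peaks differed.

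Egfl7, a secreted angiogenic factor, had the highest signal value of the 10 (47.5) and the only one above the median of marked genes, at the 55th percentile (55.4). Its peak of 9730 bp on chromosome 2 from 26583832 to 26593561 was 12655 bp long in pool E against 9415 bp in pool F, with signal values of 51.3 and 44.6. In pool E 1 peak covered all 3 of the starts whose promoters are printed above, and in pool F the first start had a separate peak of 2809 bp. Joined over gaps, 8 peaks of the replicated list made a domain of 23868 bp, at the 99.9th percentile of marked genes, and the pools gave 24402 bp (E) and 23517 bp (F). It ran 16995 bp upstream of the main TSS, and peaks covered 96.5% of the annotated gene.

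The Egfl7 peak also covered the microRNA genes Mir126a and Mir126b, which overlap on opposite strands, and the start of Gm20532, annotated as protein-coding. The mature miR-126a-3p, a form known from endothelium, starts 4713 bp after the main TSS at chr2:26591402-26591423. It and the arm from the other strand are printed with the seed (bases 2 to 8) in capitals, to show that their seeds differ.
mmu-miR-126a-3p: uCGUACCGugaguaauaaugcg
mmu-miR-126b-3p: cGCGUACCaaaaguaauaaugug
The peak list has no strand, so the mark over this stretch cannot be assigned to Egfl7, Gm20532 or the microRNAs. The same holds for Cdh5, whose peak covered the start of the antisense gene Gm29682, and for Sox17, whose peak covered the starts of Gm37587.

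The Sox genes were short genes wholly inside the mark. Sox17 (gene of 6424 bp) had a peak of 7836 bp on chromosome 1 from 4490262 to 4498097, with a signal value of 21.6. Pool E had 8352 bp at a signal value of 23.6, and pool F 7802 bp at 18.7. The TSS nearest its summit, at 4493604, belongs to a non-coding transcript, and the coding starts lie upstream of it inside the same peak. Sox18 (gene of 1805 bp) had a peak of 4520 bp on chromosome 2 from 181668412 to 181672931, with a signal value of 35.6. Pool E gave 4805 bp and a signal value of 39.1, pool F 3730 bp and 34.0. In every list 100% of both genes was covered, so their marked length was bounded by the flanks and not by the gene.

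The Sox18 domain differed between the pools. Pool E had further peaks upstream that joined the promoter into a domain of 9890 bp, with 6 peaks, while in pool F the domain was the promoter peak alone, 3730 bp. The join in pool E ran through a low peak with a signal value of 2.65, which the pool F and replicated lists lacked. In the replicated list the domain was also the promoter peak alone, 4520 bp. Peaks upstream were called in pool F too, but over 1000 bp from the promoter peak. In the replicated list they included 1 of 1405 bp with a signal value of 8.52, 4114 bp from the gene, and 1 of 490 bp with a signal value of 6.12, 3411 bp from it, and both overlapped peaks of both pools. The nearest TSS to the 1405 bp peak was that of Tcea2, 3152 bp away, so that peak cannot be assigned to Sox18.

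**Figure D1:**
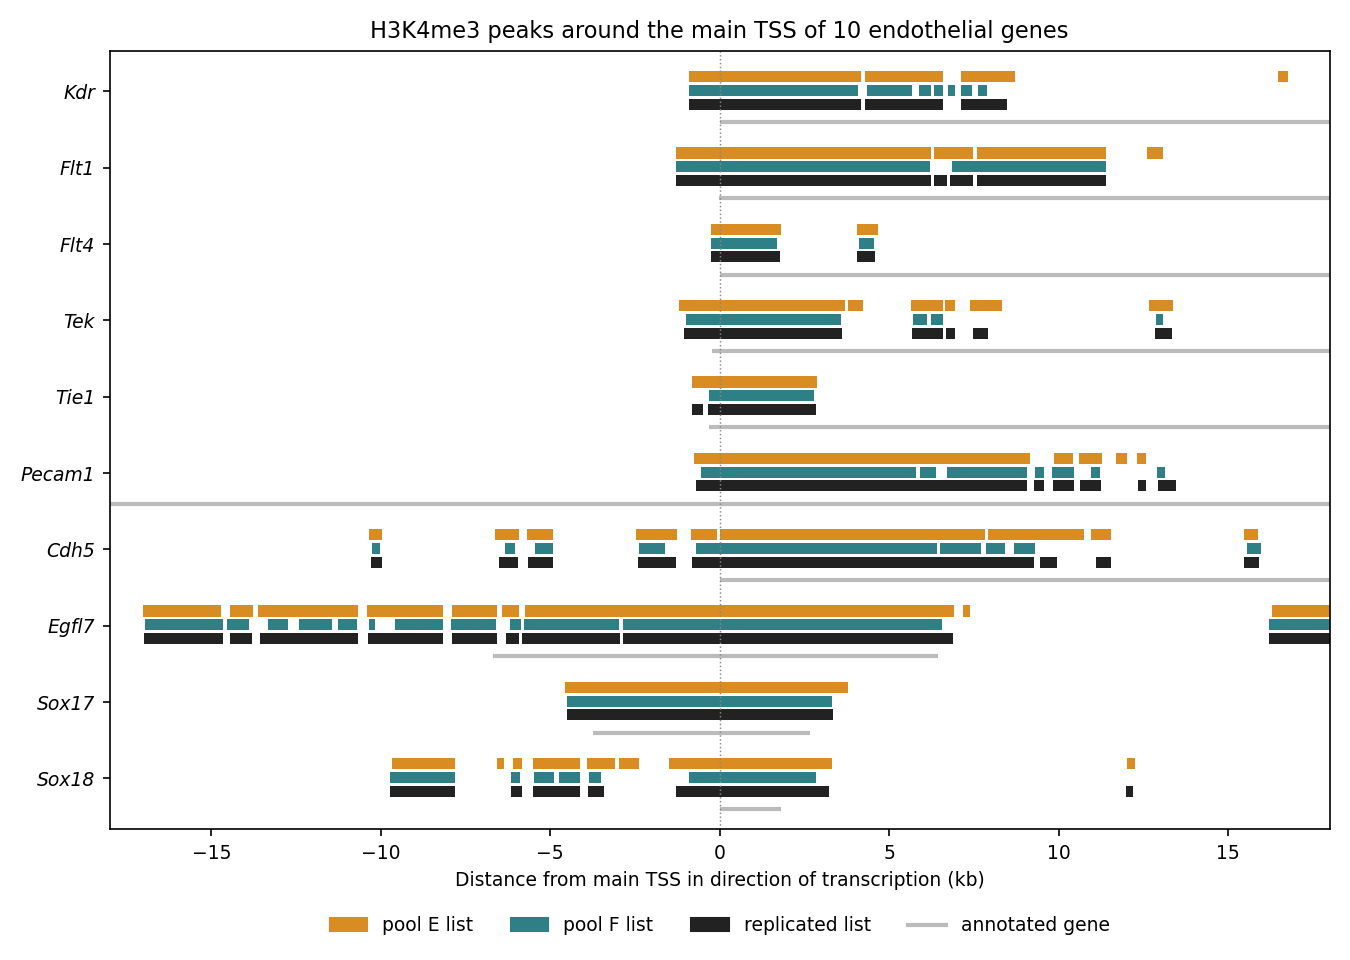
Called H3K4me3 peaks of pool E, pool F and the replicated list from 18 kb before to 18 kb after the main TSS (the TSS nearest the summit in the replicated list) of each gene, drawn in the direction of transcription, with the annotated gene as a grey line; boxes show extent and not height. The mark runs downstream into Kdr, Flt1, Pecam1 and Cdh5, covers Sox17 and Sox18 whole and extends 16995 bp before the main TSS of Egfl7.

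By role, the median width of the strongest peak was 4657 bp for the 5 receptors, 9947.5 bp for the 2 junction genes and 6178 bp for the 2 Sox genes, beside 9730 bp for Egfl7. Receptors ranged from 2032 to 7532 bp and junction genes from 9791 to 10104 bp, so the groups did not overlap in the replicated list, nor in pool E. In pool F they did: Flt1, at 7491 bp, was longer than Pecam1 (6341 bp) and Cdh5 (7105 bp). Domains overlapped already in the replicated list, where that of Flt1 (12702 bp) was longer than those of Pecam1 (11962 bp) and Cdh5 (12370 bp). The Sox genes lay inside the range of the receptors with Sox18 and above it with Sox17. The median signal value was 30.7 for receptors, 25.7 for junction genes and 28.6 for Sox genes. The receptors' range of 16.5 to 38.6 enclosed both other groups, so height did not separate the roles.

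**Figure D2:**
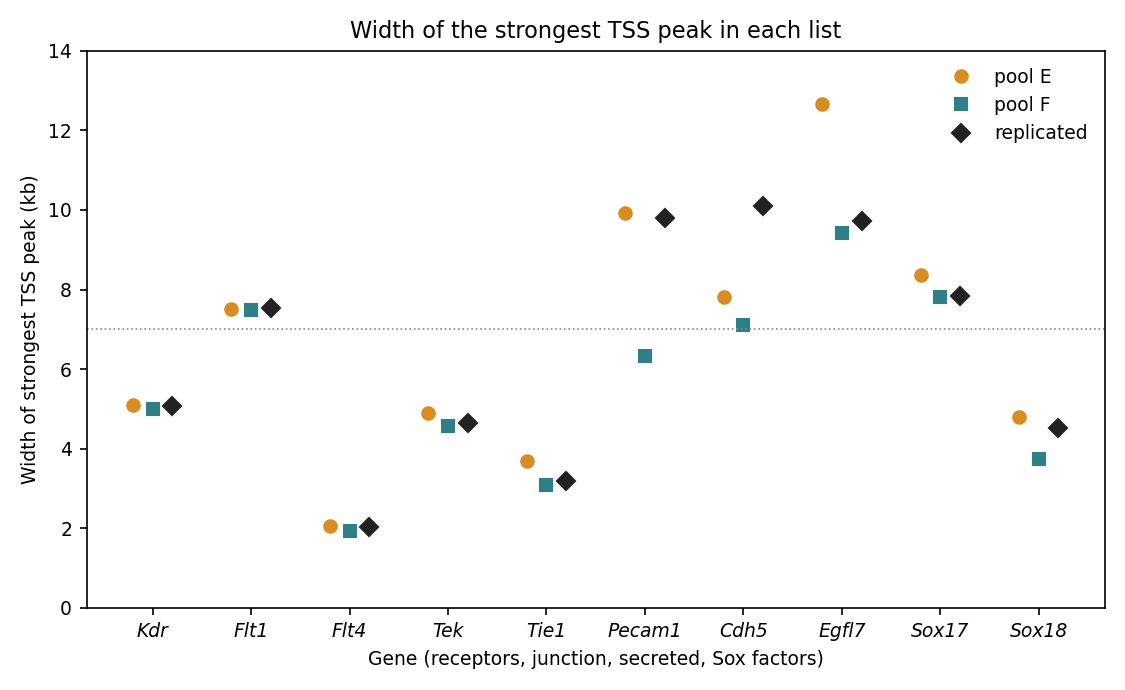
Width of the strongest TSS peak (kb) of each gene in the pool E, pool F and replicated lists; the dotted line is at 7 kb (7000 bp). Pool E lies above pool F for every gene, by most for Pecam1 and Egfl7, and the junction genes exceed every receptor in pool E but not in pool F.

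Wide peaks were more frequent among the 10 genes than among marked genes at large. A TSS peak of 7000 bp or more was present at 5 of them (Flt1, Pecam1, Cdh5, Egfl7 and Sox17), against 2.34% of marked genes. The number was 5 in pool E and 4 in pool F, where Pecam1 fell short. With a limit of 5000 bp the 10 genes gave 6, adding Kdr, against 7.65%. Wide peaks were not particular to endothelial genes. Among markers of other cells, a TSS peak of 7000 bp or more was present at 5 of 10 muscle fibre genes and 4 of 10 fibroblast genes. It was present at 0 of 10 pericyte and smooth muscle genes. Both limits were chosen after the widths had been seen. Of all 353 genes with a peak of 7000 bp or more, the median signal value was 48.4, with quartiles of 39.6 and 56.3. Of the 5 wide endothelial genes, Egfl7 lay inside those quartiles, and Flt1, Pecam1, Cdh5 and Sox17 lay below the lower one.

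**Figure D3:**
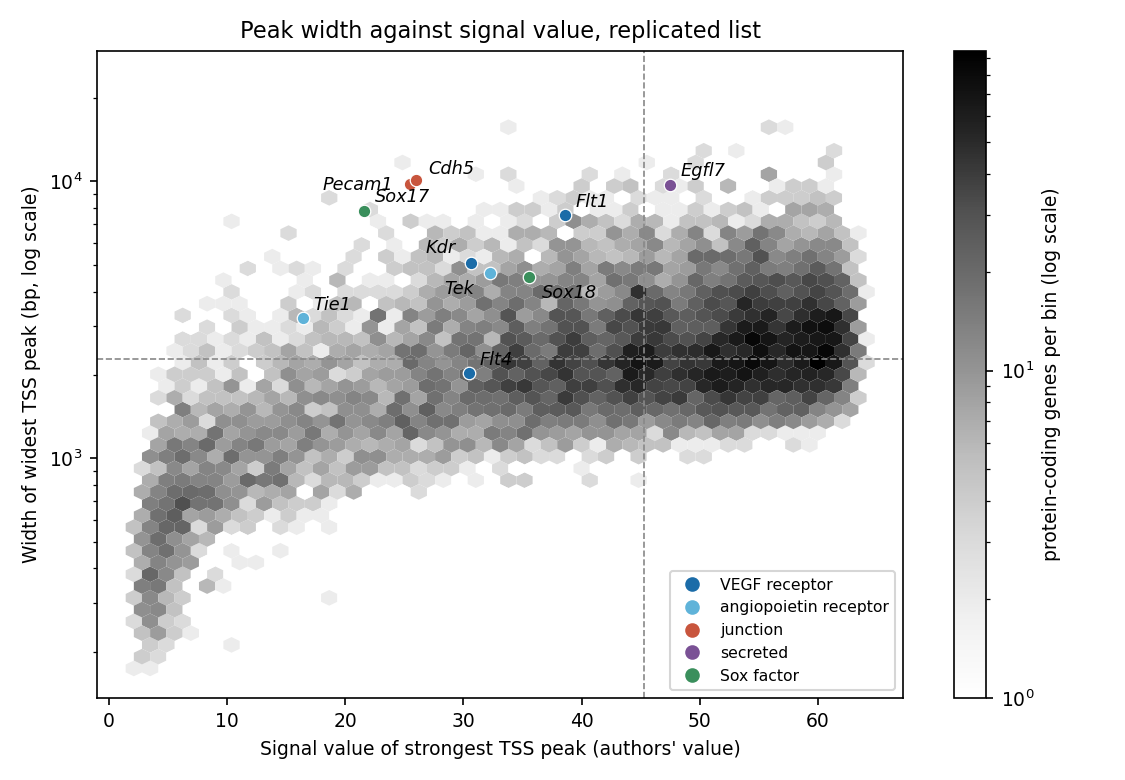
Width of the widest TSS peak (bp, log scale) against the signal value of the strongest TSS peak for all 15067 marked protein-coding genes (grey, genes per bin) and the 10 endothelial genes (coloured by role), replicated list; dashed lines are the medians, 2281 bp and 45.2. All but Flt4 lie above the width median and all but Egfl7 to the left of the signal median, with Pecam1, Cdh5 and Sox17 along the upper edge at signal values of 21.6 to 26.0.

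The mark reached far into several of the genes. From the main TSS the domain ran a median of 5234 bp downstream for the 10 genes, against 1356 bp for all marked genes. It ran 11400 bp into Flt1, 11250 bp into Pecam1, 9944 bp into Cdh5 and 8465 bp into Kdr. For Flt4 it was 1772 bp. The downstream side was the longer one at 8 of the 10 genes, the exceptions being Egfl7 and Sox17, and at 75.7% of all marked genes. In pool E it was the longer one at 7, with Sox18 a further exception (6573 bp upstream and 3316 bp downstream), so these counts lay near the share of all genes. Sox17 was measured from its non-coding start at 4493604, which has a coding start at 4493735 near it. Its other coding starts, from 4496330 to 4497354, lie nearer the upstream edge of the peak at 4498097. The Sox17 exception thus rests on the start used. The summit, the highest point of the strongest peak, lay downstream of the main TSS at 10 of 10 genes, against a background of 77.4%, and at 9 of 10 in pool E, where the Pecam1 summit lay 151 bp before its nearest TSS. That TSS, at 106714946, was not the main TSS of the other lists, at 106715259, so the pool E exception rests on the start used. Distances were 96 to 951 bp for 9 of the genes and 1803 bp for Cdh5. The Cdh5 summit was at 1801 bp in pool E and at 245 bp in pool F, so its highest point was not settled between the pools.

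Alternative starts were not all marked. The 10 genes have 52 distinct annotated TSSs, of which 47 lay within 1000 bp of a peak in each list. The other 5 were inner starts of non-coding transcripts: 2 of Flt1, 1 of Tek and 2 of Pecam1. The limit of 1000 bp was not close to any of them, since the farthest start inside it was 570 bp from a peak and the nearest one outside it 3741 bp. All 19 starts of Egfl7 and all 8 of Sox17 were inside.

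Pecam1 was marked from an inner start. Its annotated gene runs from 106654217 to 106750628 on the minus strand, but the outermost start, at 106750628, had only a peak of 648 bp with a signal value of 3.93, 570 bp away. Pools E and F gave signal values of 3.65 and 4.15 there. The 9791 bp peak covered 5 other protein-coding starts, between 106714946 and 106715394. The second Cdh5 start, at 104111307, lay 399 bp beyond the main peak, under a low peak of the replicated list with a signal value of 3.31. In pool E a peak with a signal value of 6.15 lay over it, and in pool F one was 382 bp away with a signal value of 4.44.

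Within gene bodies, over 1000 bp from each gene's own TSSs, 6 of the 10 genes had peaks, against 36.2% of marked genes. The 6 were Pecam1 with 11 peaks, Flt1 with 8, Cdh5 with 6, Kdr with 5, Tek with 4 and Flt4 with 1. Those 6 were also the longest of the 10 genes, at 42887 bp (Cdh5) or more. The longest of the others was Tie1, at 18871 bp. The share of 36.2% was not matched for gene length. Tie1, Egfl7, Sox17 and Sox18 had none, and the Egfl7, Sox17 and Sox18 genes have little or no sequence outside the promoter domain. Of the 35 peaks, 8 were continuations of the promoter domain in Kdr, Flt1 and Pecam1, and 27 stood apart from it. By summit 32 lay in introns and 3 in exons. They were low and short: the signal values had a median of 3.55 and the widths one of 451 bp, and 32 had a signal value below 6. Pool E overlapped 28 of them, pool F 24, and both pools 20. Weakest by q-value were a Kdr peak and a Pecam1 peak, with −log10 of the q-value at 0.741 and 0.840.

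The 2 highest body peaks outside the promoter domains were shared by the pools. An intronic peak of Pecam1 on chromosome 11 from 106674417 to 106675319 reached a signal value of 13.6, with 14.9 in pool E and 11.8 in pool F. It lay 11091 bp from the nearest annotated TSS of any gene. A peak of Kdr from 75933248 to 75934382, with its summit in an exon and its edge 421 bp from the 3′ end of the gene, had a signal value of 10.4, with 11.4 in pool E and 9.84 in pool F. Flt4 had a like peak just outside the gene: 464 bp from 49652932 to 49653395, 193 bp past its 3′ end, with a signal value of 11.9 and peaks of both pools over it. The nearest TSS to that peak, of Scgb3a1, was 10215 bp away. These 3 peaks had higher signal values than the Pecam1 outermost promoter.

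The central 300 bases of the Pecam1 intronic peak are printed because it was the highest body peak of the 10 genes, on the minus strand at chr11:106674840-106675139, with CG dinucleotides in capitals.
Pecam1 intronic peak: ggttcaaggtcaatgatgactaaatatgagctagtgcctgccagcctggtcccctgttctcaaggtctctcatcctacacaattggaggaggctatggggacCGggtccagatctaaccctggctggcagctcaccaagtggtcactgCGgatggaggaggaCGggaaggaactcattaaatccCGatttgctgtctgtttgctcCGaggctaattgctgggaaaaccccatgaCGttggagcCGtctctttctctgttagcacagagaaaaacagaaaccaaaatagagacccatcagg
The window held 7 CG dinucleotides and no exon base. Its ratio of observed to expected CpG was 0.355, against a median of 0.334 over 22442 windows of the same length at peaks away from TSSs. GGAAG occurred once (71.8% of those windows have it) and ACAAT once (31.9%), counting both strands. The promoter windows of Flt1 and Kdr had ratios of 0.744 and 0.676.

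Promoter CpG content split the genes in a way that did not follow width. In the 1000 bp around the main TSS the observed over expected ratio was 0.203 for Tie1, 0.221 for Pecam1, 0.244 for Cdh5 and 0.296 for Tek. These 4 fell in the low class (ratio under 0.48), to which 15.9% of marked genes belonged. Flt1 (0.811), Sox17 (0.763) and Sox18 (0.769) were in the high class (at least 0.75 with GC of at least 55%). The Sox17 window lay around its non-coding start at 4493604. It held the coding start at 4493735 but not those from 4496330 to 4497354. The class of Sox17 and its percentile within that class thus rest on the start used. Kdr (0.656), Egfl7 (0.733) and Flt4 (0.807, with GC of 51.4%) were in between. Both junction genes and both angiopoietin receptors were thus CpG-poor, and the VEGF receptors, Egfl7 and the Sox genes were not.

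CpG-poor promoters had lower and narrower peaks over all marked genes: the median signal value was 20.6 in the low class, 44.5 in the intermediate and 51.8 in the high class, and the median width 1596, 2070.5 and 2656 bp. Against their own class, 4 of the 10 genes lay above the median signal value: Tek at the 67.6th percentile, Cdh5 at 59.0, Pecam1 at 58.3 and Egfl7 at 58.1. Tie1 was at 43.4, while Sox17 was at 4.14, Sox18 at 15.2, Flt1 at 19.5, Flt4 at 21.9 and Kdr at 22.3. The low height of Pecam1, Cdh5 and Tek among all genes was therefore not low among CpG-poor promoters, whereas that of the VEGF receptors and Sox genes was low in their classes too. Width stayed high within class for 9 of 10, with Pecam1 at 98.6 and Cdh5 at 99.0 in the low class and Flt4 at 48.2 in the intermediate one.

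**Figure D4:**
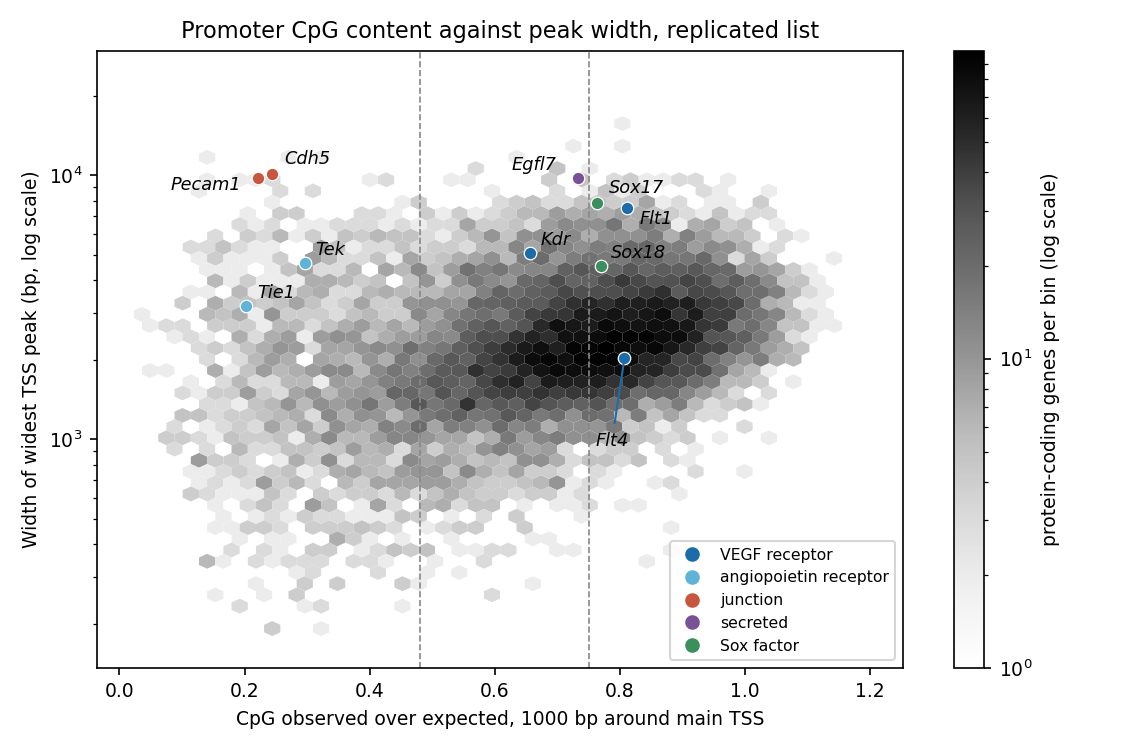
Width of the widest TSS peak (bp, log scale) against the observed over expected CpG ratio in 1000 bp around the main TSS, for all 15067 marked genes (grey, genes per bin) and the 10 endothelial genes (coloured by role), replicated list; dashed lines are at ratios of 0.48 and 0.75. Tie1, Pecam1, Cdh5 and Tek lie at ratios of 0.203 to 0.296, and Pecam1 and Cdh5 are above nearly all genes there.

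The pools agreed on presence and place and differed in length. Of each gene's domain in base pairs of peak, pool F shared 96.3 to 100% with pool E, while pool E shared 45.9% (Sox18) to 95.3% (Flt1) with pool F. Only peaks inside the other pool's domain were counted. The value of 45.9% thus leaves out pool F peaks upstream of Sox18 that overlapped the pool E domain. The strongest peaks of the pools overlapped by at least 50% of each at all 10 genes. The strongest peak was wider in pool E at 10 of 10, and over all genes marked in both pools this was so for 76%. The median ratio of domain width in pool E to pool F was 1.11 for the 10 genes and 1.05 for all. The domain was wider in pool E at 9 of the 10 genes and at 76.3% of all, so most genes outside the 10 also had the wider domain there. The pool E list held 42418 peaks over 60.6 Mb and the pool F list 39544 over 52.9 Mb, and the depth of the libraries is unknown. The part of depth in the difference was not tested.

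The wider pathway, in 8 lists of 84 genes, was also mostly marked: 78 genes in the replicated list, 79 in pool E and 78 in pool F. These counts and those of the single lists stand beside a share of 69.3% of all protein-coding genes in the replicated list. The median width of the marked pathway genes was 4884 bp and their median signal value 38.3, between the 10 genes and all marked genes in both. Of the VEGF ligands and co-receptors 7 of 7 were marked, from the co-receptor Nrp1 (signal value 54.3, width 10959 bp) and the ligand Vegfc (52.0, 3327 bp) to Pgf (18.8) and Vegfd (6.50). The genes around Tek gave 4 of 5, led by Svep1 (37.2) and the phosphatase Ptprb (34.2, width 10698 bp). The ligands Angpt2 (28.6) and Angpt1 (23.1) were lower, and Angpt4 was unmarked. Tek and its phosphatase Ptprb had like heights, 32.3 and 34.2, and unlike widths.

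Junction and surface genes were marked at 18 of 18, against 69.3% of all protein-coding genes. Tjp1 (55.6) and Ctnnb1 (50.1), which many cell types use, were highest. The sialomucin Emcn (16.9) and Plvap (3.71), the diaphragm protein of fenestrated capillaries, were lowest. Transcription factors were marked at 15 of 16, with Ets1 (57.3) and Foxo1 (55.5) highest, Erg (21.9) and Lyl1 (9.47) lowest, and Etv2, a factor of embryonic endothelial progenitors, unmarked. Their median width of 6794 bp was the longest of the 8 lists, and 7 of them had a peak of 7000 bp or more. Enzymes and signalling genes were marked at 12 of 12, from Lpl (58.9) and the caveolar Cav1 (49.8) to the water channel Aqp1 (22.4) and the fatty acid carrier Cd36 (19.8). Lpl, Cav1 and Cd36 are also used by muscle or fat cells.

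Genes of vessel types were counted against the share of 69.3% of all protein-coding genes, with no test between the lists. Arterial genes gave 13 of 13, with the connexin Gja5 (61.7) and the Notch target Hey1 (61.3) highest and Notch1 (35.9) and Gja4 (26.6) lowest. Venous genes gave 4 of 7. Ephb4 (59.6) and Nr2f2 (56.3) were high, and the Nr2f2 peak of 23209 bp was the widest TSS peak of any marked gene. Aplnr (18.1) and Vwf (12.3) were low, and Ackr1, Sele and Selp, adhesion and chemokine-binding genes of venules and inflamed endothelium, were unmarked. Pool E marked 5 of the 7. Lymphatic genes gave 5 of 6, with Prox1 (51.3) and Foxc2 (45.8) above Reln (25.6) and Lyve1 (4.43), and Ccl21a unmarked. Their median width of 2237 bp was the shortest of the 8 lists, over 5 genes from 962 bp (Lyve1) to 3495 bp (Prox1). It was close to the 2281 bp median of all marked genes, as well as to the 2032 bp of Flt4, the lymphatic receptor.

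Markers of other cells gave the setting, again beside the share of 69.3% of all protein-coding genes. Muscle fibre markers were marked at 10 of 10, as the tissue label requires, with Mylpf highest (58.8). Their signal values had a median of 46.5 (range 9.83 to 58.8) and their widths one of 7140 bp. Hepatocyte markers, foreign to muscle, gave 0 of 10. Pericyte and smooth muscle genes gave 10 of 10 (median signal value 13.4, range 4.22 to 34.1, Abcc9 highest) and fibroblast genes 10 of 10 (20.2, range 7.72 to 39.2, Gsn highest). Macrophage genes gave 9 of 10 (6.02, range 4.07 to 8.02, Csf1r highest), and blood cell genes 4 of 10 (12.6, range 3.05 to 44.9, Itga2b highest). The endothelial genes' median of 30.6 thus stood below that of fibre genes and above those of the other resident cells. The range of the fibre genes enclosed that of the endothelial genes, 16.5 to 47.5. Pecam1, Tek and Flt1 are also used by some blood cells. Of the blood cell list, Cd3e, Cd3g, Cd79a and Gp9 were unmarked, and Itga2b (44.9), Epor (19.1), Itgam (6.02) and the pan-leukocyte gene Ptprc (3.05) were marked. The part of blood cells in the endothelial peaks was not tested.

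**Figure D5:**
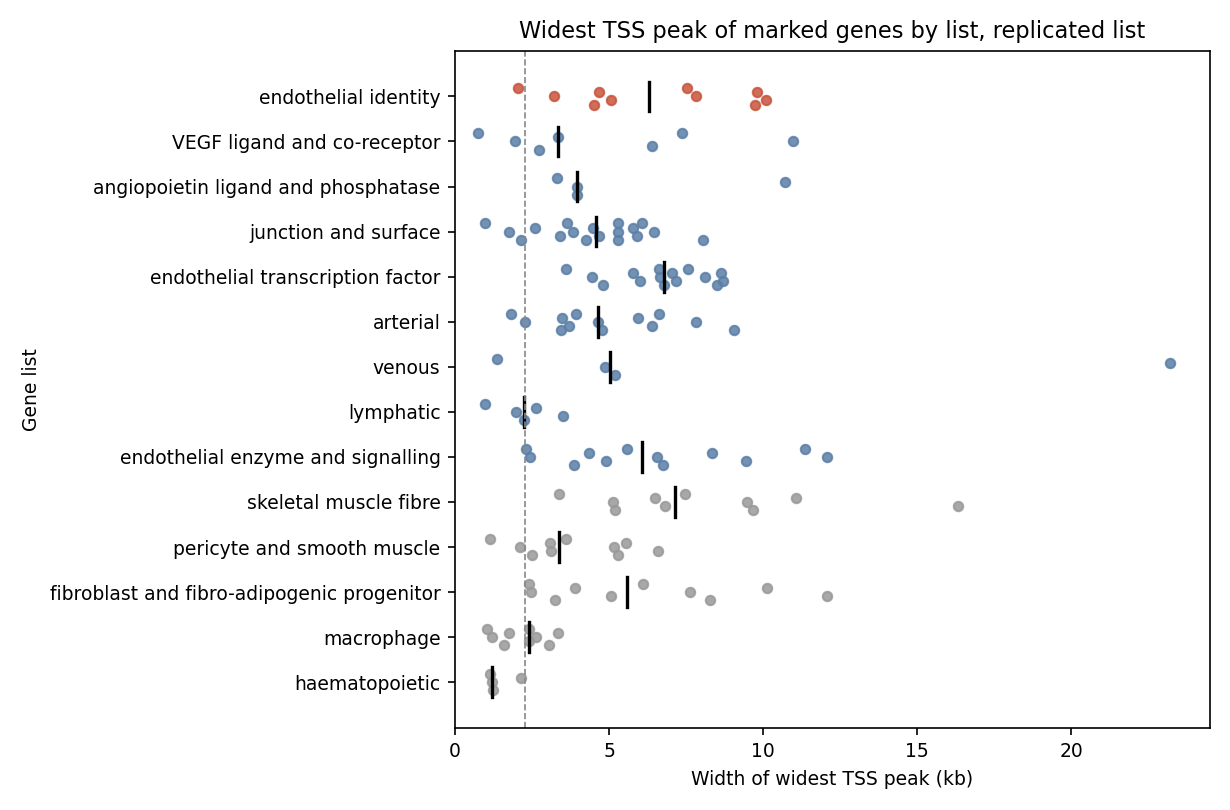
Width of the widest TSS peak (kb) of each marked gene, by list: the 10 endothelial identity genes (red), 8 pathway lists (blue) and markers of other cells (grey), replicated list; black bars are list medians and the dashed line is the median of all marked genes, 2281 bp. The endothelial median of 6302.5 bp lies below that of muscle fibre genes (7140 bp) and transcription factors (6794 bp). It lies above those of fibroblast genes (5585 bp), pericyte and smooth muscle genes (3360 bp), macrophage genes (2388 bp) and lymphatic genes (2237 bp).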

How the data were processed

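H3K4me3 ChIP-seq of 4 libraries in 2 pools was used as narrowPeak lists on mm10 that the authors deposited. Per the labels, fragments were 200 to 600 bp. The text deposited with each sample says which alignments each list came from, and neither aligner nor peak caller is named: they are not given in the sources used here. Columns used from the deposited files were the authors' signal value, −log10 of the q-value and the offset of the summit, and the deposited display score was left unused. What the signal value is relative to is not stated, so it was only ranked and described within a list. Depth is unknown.

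Genes and TSSs came from GENCODE M21. A gene counted as marked with at least 1 peak no more than 1000 bp from a TSS of its own, its strongest peak was the one with the highest signal value, and the main TSS was the one nearest that peak's summit. Domains joined peaks over gaps of at most 1000 bp. Percentiles are among the marked protein-coding genes of the same list. Sequences came from RefSeq GRCm38.p6, the reference and not the hybrid's own. The overlap and width code was tested on simulated peaks. Python 3.11.15 with pandas 2.3.3, numpy 2.4.6 and pysam 0.24.0 was used.

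The members and lists were chosen with earlier results of these data known. Named genes were all members and, for each pathway list, its unmarked genes and the 2 highest and 2 lowest by signal value, plus the highest gene of each other cell type, neighbours with a TSS in a member's peak, and the blood markers. An item of these lists is not reported here. Alternatives were other TSS windows (0 and 2500 bp), protein-coding starts only, a q-value of at most 0.001, each pool's list alone, the pooled list, other gaps and a required overlap of the pools.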

Additional observations from a re-analysis of the deposited data

How the results depend on the processing

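The 10 marked genes, the 10 marked in both pools and the 6 with gene body peaks kept those numbers under every alternative listed above that applied to them. Pathway genes with a TSS peak numbered 77 to 79, against 78. The median signal percentile of the 10 genes was 23.7 and ranged from 21.9 to 26.7. Genes with a TSS peak of 7000 bp or more numbered 4 to 6, against 5, with the value of 4 in the list of pool F alone and that of 6 at a limit of 5000 bp; this limit and all settings for the wide peaks were chosen after seeing the data.

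The median domain width depended on how peaks were joined. It was 8607.5 bp, 6302.5 bp with no joining and 11040.5 bp with gaps of at most 3000 bp. Leaving out 1 pool gave 8311 bp (pool F alone) and 9751 bp (pool E alone). The other 5 settings tried gave 8607.5 bp. All of these values exceeded 2361 bp, the median of all marked genes under the setting reported.

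No paired analysis was possible because each pool has 1 list and no test was made. With no read counts, a weak peak absent from a list cannot be told from one missed for depth.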
